A study of Danio rerio with 14 samples.

Results

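The regions described here are 745 places in the zebrafish genome that carried a Rad21 peak at 4.5 hours post fertilisation (hpf), carried none at 10 hpf, and yet had a separate 10 hpf Rad21 peak close by. They were chosen by position from the authors' peak lists. A 4.5 hpf peak on chromosomes 1 to 25 was taken when it overlapped no 10 hpf Rad21 peak by even 1 bp and its centre lay within 5 kb of the centre of one. The 4.5 hpf list holds 7144 peaks on chromosomes 1 to 25, of which 2946 coincided with a 10 hpf peak (kept peaks) and 4198 did not. Among those 4198, 745 met the distance limit (near peaks) and 3453 lay farther from any 10 hpf centre (distant peaks). The 10 hpf peak with the nearest centre is called the neighbour of a near peak. The choice used the positions in both Rad21 lists, so distances, counts by distance and the presence of a neighbour are given as description.

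The study mapped Rad21 in pooled whole embryos of the strain AB/PS at 2.5, 4.5 and 10 hpf, and CTCF at 10 hpf, by chromatin immunoprecipitation and sequencing with custom-made antibodies. Each antibody and stage had 2 libraries from separate collections of 1000 embryos (2000 at 2.5 hpf), and each stage had 2 input libraries made without antibody. The labels name no treatment or genetic change, and a whole embryo mixes all the cell types of its stage. One peak list stands for each antibody and stage. The 4.5 hpf Rad21 list rests on 14255160 tags, the 10 hpf Rad21 list of 18075 peaks on 13260105, and the 10 hpf CTCF list of 14079 peaks on 28291282, per the file headers. With a single list for each stage there is no spread between replicates, so no difference below carries a test, and the intervals in parentheses are exact 95% binomial intervals that cover counting error over peaks only. Positions are on the Zv9 build.

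Rad21 is the subunit that closes the ring of cohesin, the complex that holds sister chromatids together and, in interphase, extrudes loops of chromatin. Cohesin is loaded with the help of Nipbl, travels along the fibre, and is known in vertebrates to halt at CTCF bound to its motif. A Rad21 peak therefore need not mark the place where cohesin was loaded. In the zebrafish, the embryo's own genome is broadly switched on between 2.5 and 4.5 hpf, and gastrulation ends by 10 hpf.

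Near peaks stood at 180 to 4991 bp from their neighbours, with a median of 2071 bp (quartiles 991 and 3384). Peaks of these lists stop overlapping at a distance of 179 bp between centres, so the nearest were separated by little more than their own width. The closest was chr2:21602087-21602255, at place 1333 of the 4.5 hpf list, 180 bp from the 10 hpf peak chr2:21602257-21602445. Next came chr4:43972280-43972448, 184 bp from its neighbour, and then 3 peaks at 192 bp, chr20:49272074-49272242, chr25:4613252-4613420 and chr23:38963002-38963170. The farthest were chr15:5697937-5698105 at 4991 bp, chr23:29081482-29081650 at 4973 bp, chr6:34427756-34427924 at 4956 bp, chr14:32856158-32856326 at 4947 bp and chr16:30852588-30852756 at 4943 bp. Just outside the limit, and therefore not among the 745, lay chr10:37921507-37921675 at 5020 bp, chr16:52553000-52553168 at 5030 bp and chr24:1172774-1172942 at 5031 bp. The neighbour lay at the higher coordinate for 380 of 745 near peaks, or 51.0% (47.4 to 54.7), so neither side was favoured beyond counting error.

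Among the 4198 peaks absent at 10 hpf, a 10 hpf peak within 5 kb was about 1.5 times as common as over chromosome positions. The rule used these distances, so the ratio is a description. Near peaks were 17.7% (16.6 to 18.9) of the 4198 peaks absent at 10 hpf, whereas 11.7% of the chromosome positions at which a peak would overlap none of the 10 hpf list lay within 5 kb of a 10 hpf centre, 158 of 1350 Mb. The ratio was 1.52 (1.42 to 1.62). At the share of positions, 492 of the 4198 would be counted as near, against the 745 observed. Positions were not filtered for sequence that reads cannot be placed on. By comparison, 11.2% (10.6 to 11.8) of the 10688 CTCF peaks that overlapped no 10 hpf Rad21 peak lay within 5 kb of a 10 hpf Rad21 centre.

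The ratio to the share of positions was highest in the band closest to the neighbour. Between 179 and 500 bp there were 106 near peaks, 2.95 times (2.42 to 3.56) the share of positions in that band. The ratio was 1.497 (1.19 to 1.85) from 501 to 1000 bp with 82 peaks, 1.61 (1.38 to 1.87) from 1 to 2 kb with 171 and 1.55 (1.32 to 1.80) from 2 to 3 kb with 158. It was 1.25 (1.04 to 1.49) from 3 to 4 kb with 123 peaks and 1.11 (0.91 to 1.34) from 4 to 5 kb with 105. Beyond the limit it was 1.33 (1.23 to 1.43) from 5 to 10 kb with 566 peaks, 1.17 (1.09 to 1.24) from 10 to 20 kb with 777 and 1.05 (0.999 to 1.10) from 20 to 50 kb with 1180. The bands on the 2 sides of the 5 kb limit had intervals that overlap but unlike widths, and an edge at 5 kb was not tested.

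**Figure D1:**
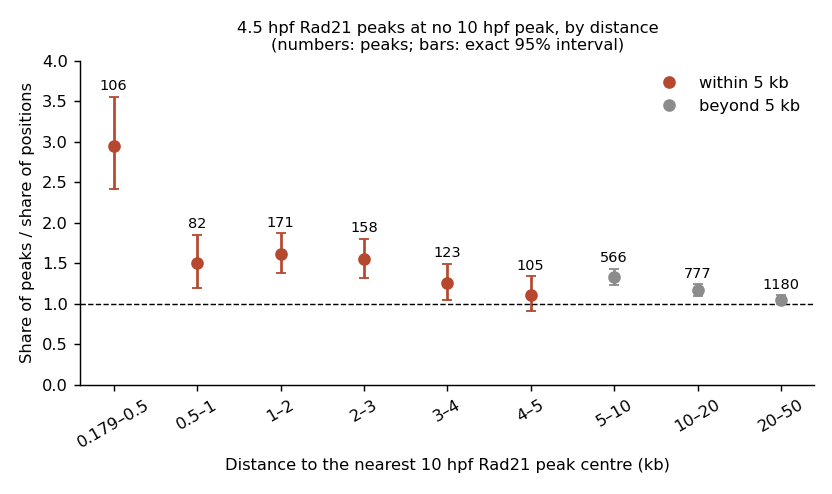
Share of the 4.5 hpf Rad21 peaks at no 10 hpf peak that lie in each band of distance (kb) to the nearest 10 hpf centre, divided by the share of chromosome positions in the band; points give the ratio, bars the exact 95% interval, numbers the peaks, and the dashed line a ratio of 1. The band below 0.5 kb stands at 2.95, the other bands within 5 kb at 1.11 to 1.61, and the bands beyond 5 kb at 1.05 to 1.33.

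Within 5 kb as a whole, kept peaks had further 10 hpf peaks around them about as often as absent peaks did. Of the 2946 kept peaks, 549, or 18.6% (17.2 to 20.1), had another 10 hpf peak that they did not overlap within 5 kb, beside 17.7% of the peaks absent at 10 hpf. Each peak was then placed by its nearest separate 10 hpf peak only. Between 500 bp and 5 kb the share so counted was 17.99% (16.6 to 19.4) for kept peaks and 15.2% (14.1 to 16.3) for absent ones. That count leaves out the 19 kept and 106 absent peaks with a nearer one, even where a further one lay in this range. The gap between these intervals therefore depends in part on the counting. At or below 500 bp the order turned, with 0.645% (0.389 to 1.01) of kept peaks and 2.53% (2.07 to 3.05) of absent ones. The peak caller accounts for a part of that turn by construction, since a kept peak already has a 10 hpf peak at its site, and the caller was set to keep 10 hpf peaks 378 bp apart (per the file headers; the smallest distance in the deposited list is 338 bp). For the same reason the 10 hpf list could rarely hold a peak of its own at the 78 near peaks, 10.5% (8.36 to 12.9) of the 745, that lay below 378 bp from the neighbour. At these 78 a shift of the summit and a loss beside a gain cannot be told apart.

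In most cases the neighbour was itself absent from the 4.5 hpf list, as were most 10 hpf peaks. A 10 hpf peak is called new when it overlaps no listed 4.5 hpf peak. The 4.5 hpf list had the lower immunoprecipitation efficiency in the file headers, 1.03% against 3.38% at 10 hpf. The neighbour overlapped no 4.5 hpf peak for 610 of the 745 near peaks, or 81.9%, beside 83.7% of all 10 hpf Rad21 peaks. For 599 of these 610, no 10 hpf peak within 5 kb overlapped a 4.5 hpf peak. For the other 135, or 18.1% (15.4 to 21.1), the neighbour was already a Rad21 site at 4.5 hpf, beside 16.3% of all 10 hpf Rad21 peaks. Both shares depend on the length of the 10 hpf list. With only its first 7144 peaks, 33.5% (28.8 to 38.5) of the 379 near peaks had such a neighbour, beside 31.7% (30.7 to 32.8) of those 7144 peaks. At those 135 sites the nearest 10 hpf peak was not new. The near peak and the neighbour's site were a pair of 4.5 hpf sites of which 1 was listed again. Some of the 135 had further 10 hpf peaks within 5 kb, and whether those were new was not counted. The share with such a neighbour was 4.72% (1.55 to 10.7) between 179 and 500 bp, where the 4.5 hpf list, with no centres less than 333 bp apart, leaves little room for it, and 28.0% (18.7 to 39.1) between 501 and 1000 bp. In the 4 bands from 1 to 5 kb it ran from 17.1% to 21.1%. Relative to positions, peaks absent at 10 hpf were 1.70 times (1.44 to 1.99) as common within 5 kb of 10 hpf centres that had a 4.5 hpf peak (146 peaks) and 1.49 times (1.39 to 1.60) within 5 kb of those that had none (624 peaks). These intervals overlap. The name "moved" was therefore not used for the 745, since position alone does not link a site lost to a site gained.

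**Figure D2:**
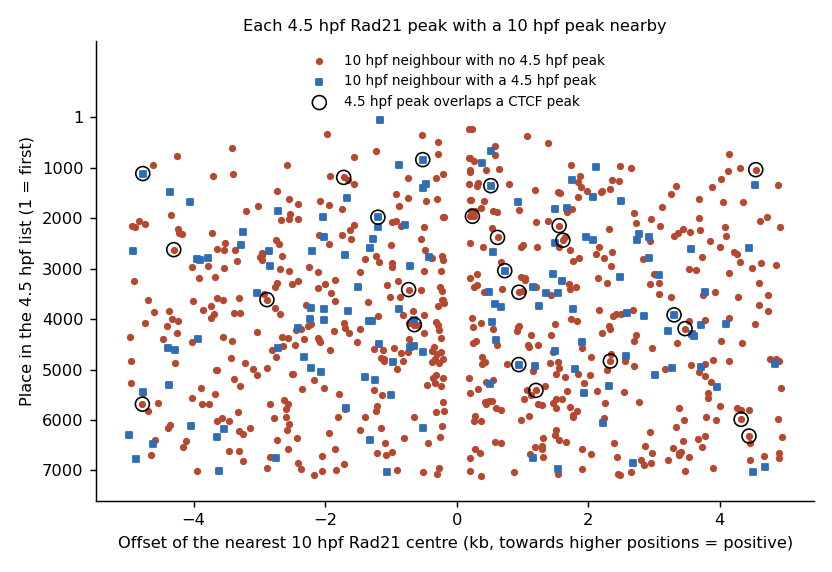
Each point is one of the 745 near peaks, placed by the offset of its neighbour's centre (kb, positive towards higher positions) and by its place in the 4.5 hpf list (1 is listed first). Red circles have a neighbour with no 4.5 hpf peak (610) and blue squares one with a 4.5 hpf peak (135), and black rings mark the 24 that overlap a CTCF peak; the gap around 0 is the zone in which peaks would overlap.

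The first near peaks of the 4.5 hpf list show the range of these arrangements. The deposited order of a list was used as a rank, because the score column holds one constant. The value the authors sorted by is not known here. Over long stretches the order runs through the chromosomes in turn, as from place 5399 on chromosome 1 to place 6091 on chromosome 9. Within such a stretch the place follows the chromosome, so it is a coarse rank only. The highest, chr16:20969490-20969658 at place 51, lay 1168 bp from the 10 hpf peak chr16:20968312-20968500 at place 1673, which also carried a 4.5 hpf peak. The second, chr14:604811-604979 at place 235, had its neighbour 229 bp away, at place 3067. The third, chr20:49272074-49272242 at place 239, and the eighth, chr20:49270885-49271053 at place 519, shared the single neighbour chr20:49272256-49272444 at place 6206, at 192 and 1381 bp. At chr25:17057174-17057342, place 338, the neighbour stood at place 653 of the 10 hpf list, 1973 bp away, and overlapped a CTCF peak. By contrast, chr11:10972892-10973060 at place 354 and chr3:41709573-41709741 at place 383 had neighbours far down the 10 hpf list, at places 10866 and 15285. The remaining peaks of the first 10 were chr7:54577351-54577519 at place 495, chr11:8272328-8272496 at place 568 and chr14:23837528-23837696 at place 606. Their neighbours stood 291, 580 and 3419 bp away, at places 4521, 6502 and 11935. Among these 10 near peaks, 1 had a neighbour that was a Rad21 site at 4.5 hpf, 2 had a neighbour at CTCF, and none overlapped a CTCF peak itself.

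Near peaks were spread through the 4.5 hpf list, between the other classes. Their median place was 4045 of 7144 (quartiles 2571 and 5426), against 1837 (801 and 3508) for kept peaks and 4727 (3284 and 5997) for distant ones. Only 7 were among the first 500 peaks. In the first decile 12 of 715 peaks were near peaks, since 92.6% of that decile was kept, and the number by decile ran from 53 in the second to 102 in the seventh and 78 in the last. Overall 41.2% of the 4.5 hpf peaks were kept.

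Among peaks absent at 10 hpf, those listed higher more often had a 10 hpf peak nearby. The share was 22.6% (12.3 to 36.2) of 53 in the first decile, 31.4% (24.5 to 38.9) of 169 in the second, 25.9% (20.8 to 31.5) in the third and 25.8% (21.3 to 30.6) in the fourth. It lay between 17.4% and 18.9% in the next 3 deciles and was 14.0% (11.3 to 17.1), 12.5% (9.91 to 15.4) and 12.6% (10.1 to 15.5) in the last 3, whose intervals include the 11.7% of chromosome positions. For the first 3572 peaks of the list together it was 23.4% (21.1 to 25.7), and for the rest 15.1% (13.8 to 16.5). Kept peaks with another 10 hpf peak nearby ranged from 14.2% to 21.1% over the deciles, with intervals that overlap each other. In deciles 1 to 4 the absent share was above the kept share, with separate intervals in deciles 2 and 4. The kept shares there were 18.3% (15.2 to 21.9) and 15.2% (11.6 to 19.4). The absent share was also above in decile 6 and below in deciles 5 and 7 to 10, with intervals that overlap. The rule used the distances behind the absent shares, so the deciles are a description and were not tested.

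**Figure D3:**
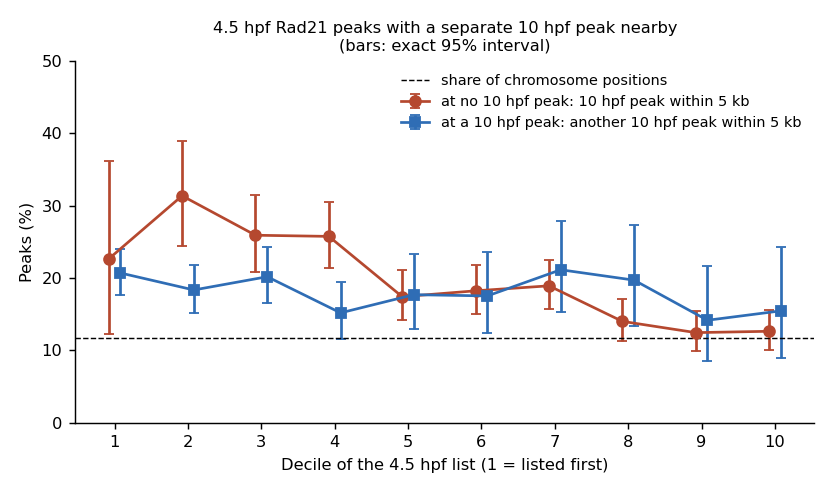
Share (%) of 4.5 hpf Rad21 peaks with a separate 10 hpf Rad21 peak within 5 kb, by decile of the 4.5 hpf list (1 is listed first): red, peaks at no 10 hpf peak; blue, peaks at a 10 hpf peak, counting another one; bars, exact 95% intervals; dashed line, the 11.7% of chromosome positions. The red points go from 31.4% in the second decile to 12.6% in the last, while the blue points stay between 14.2% and 21.1%.

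A high place at 4.5 hpf went with a high place of the neighbour only weakly. Spearman's rho between a near peak's place and its neighbour's place was 0.12 over the 745 pairs, beside 0.59 between a kept peak and the 10 hpf peak at the same site over 2946 pairs. Pairs from the same stretch of a chromosome are not independent, and each stage has 1 list. With distance, the place of a near peak had a rho of 0.088.

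The neighbours came from the whole length of the 10 hpf list. They were 724 separate peaks, since 21 served 2 near peaks each, with near peaks on both sides at 11 of the 21. The median place of the neighbour was 8181 of 18075, counted once for each near peak (quartiles 4387 and 12590). It was 3180 for the 135 that had a 4.5 hpf peak and 9312 (95% interval of the median 8652 to 9785) for the 610 that had none. Over the whole 10 hpf list the corresponding medians were 3202 and 10168 (10031 to 10308), and the intervals of the medians for peaks new at 10 hpf do not overlap. By decile of the 10 hpf list, 3.15% to 4.81% of the peaks were neighbours, with the lowest values in the last 3 deciles (3.15% to 3.49%).

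The 14 near peaks whose neighbour was among the first 500 of the 10 hpf list had neighbours that were, for 10 of the 14 and for 9 of the first 10, Rad21 sites at 4.5 hpf as well. That is usual at the head of the list, where 416 of the first 500 peaks, or 83.2% (79.6 to 86.4), overlapped a 4.5 hpf peak. Examples are chr19:15236684-15236852 at place 1987, 2032 bp from chr19:15234642-15234830 at place 69, and chr5:34153848-34154016 at place 2377, 2920 bp from chr5:34156758-34156946 at place 71, both beside CTCF-bound neighbours. Neighbours at places 257, 494, 377, 165, 358, 291 and 296 stood by chr7:66983983-66984151, chr6:43226008-43226176, chr19:37280993-37281161, chr18:7694120-7694288, chr18:35739988-35740156, chr6:49879066-49879234 and chr8:19409088-19409256, at 709 to 4279 bp. Among the first 10, the exception was chr2:31968513-31968681 at place 3062, 2113 bp from chr2:31966390-31966578 at place 379, which was new at 10 hpf and overlapped a CTCF peak. Farther down, neighbours at places 267, 332 and 378 were also new at 10 hpf.

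CTCF, the DNA-binding protein that halts cohesin, was measured at 10 hpf only, and its positions were not used in choosing these sites. The choice did leave out every site with a 10 hpf Rad21 peak, and 18.8% of those peaks overlapped a CTCF peak. A low share at CTCF is therefore partly set by the choice, for near and distant peaks alike. Near peaks were seldom CTCF sites. Only 24 of 745, or 3.22% (2.07 to 4.76), overlapped a 10 hpf CTCF peak, beside 11.9% of all 4.5 hpf peaks. The share was 2.66% (2.15 to 3.26) for distant peaks, with an interval that overlaps that of near peaks, and 25.02% (23.5 to 26.6) for kept peaks. With a CTCF centre within 500 bp counted in place of an overlap, the near, distant and kept shares were 6.04% (4.44 to 7.999), 3.10% (2.55 to 3.73) and 25.8% (24.2 to 27.4), where a CTCF peak at a close neighbour can count for the near peak too. With the 10 hpf list cut to its first 7144 peaks, 5.01% (3.04 to 7.72) of near peaks overlapped a CTCF peak, and the distant and kept shares under that cut are not given here. Among the first 3572 peaks of the list the near, distant and kept shares were 4.44% (2.45 to 7.34), 3.97% (2.86 to 5.34) and 23.2% (21.5 to 25.02). Among the others they were 2.33% (1.12 to 4.24), 2.11% (1.57 to 2.76) and 30.6% (27.2 to 34.1). Kept peaks had the highest share in both parts of the list, and the near and distant intervals overlapped in both.

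The share of neighbours at CTCF was close to that of other 10 hpf Rad21 peaks. Of the 724 neighbours 137, or 18.9% (16.1 to 22.0), overlapped a CTCF peak, against 18.8% (18.2 to 19.3) of the 17351 that were no neighbour and 18.8% of the whole 10 hpf list. Among neighbours new at 10 hpf the share was 17.2% (14.2 to 20.5) and among the other new peaks 17.5% (16.9 to 18.1). Counted over the 745 pairs, the neighbour alone was at CTCF in 136, the near peak alone in 21, both in 3 and neither in 585. By distance, the neighbour was at CTCF for 11.3% (5.99 to 18.9) of near peaks between 179 and 500 bp and for 13.8% to 24.1% in the bands beyond. A CTCF centre lay within 5 kb of 209 near peaks, or 28.1% (24.9 to 31.4), against 10.3% (9.32 to 11.4) of distant peaks, 33.9% (32.2 to 35.6) of kept peaks and 21.9% of all 4.5 hpf peaks. For 50 of the 209 the CTCF peak was at neither the near peak nor its neighbour. Having a 10 hpf Rad21 peak in reach, itself often at CTCF, fixes part of that share.

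**Figure D4:**
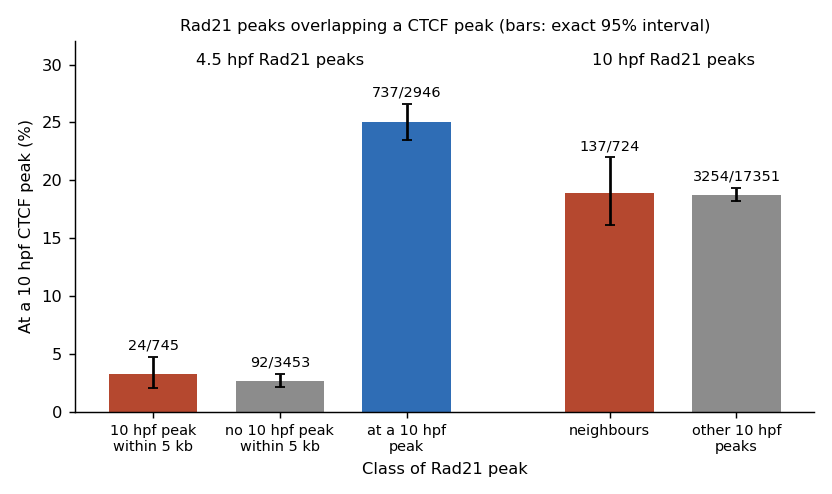
Share (%) of Rad21 peaks that overlap a 10 hpf CTCF peak, for 4.5 hpf peaks with a separate 10 hpf peak within 5 kb (24 of 745), with none within 5 kb (92 of 3453) and at a 10 hpf peak (737 of 2946), and for 10 hpf peaks that are a neighbour (137 of 724) or not (3254 of 17351); bars are exact 95% intervals. Near peaks stand at 3.22%, close to distant ones, while neighbours and other 10 hpf peaks stand at 18.9% and 18.8%.

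The 24 near peaks that overlapped a 10 hpf CTCF peak had the nearest 10 hpf Rad21 centre 238 to 4781 bp away. For some of them the neighbour was a Rad21 site at 4.5 hpf too. The highest in the list was chr22:482596-482764 at place 842, 517 bp from chr22:482069-482257, a 10 hpf peak at place 801 that had a 4.5 hpf peak too. It was followed by chr11:19118116-19118284 at place 1041, chr8:55693605-55693773 at place 1118 and chr2:2823041-2823209 at place 1194, with neighbours 4547, 4775 and 1720 bp away. Also among the first 10 were chr24:29175846-29176014, chr17:11302861-11303029, chr19:4820108-4820276, chr11:30710533-30710701, chr5:52584956-52585124 and chr9:21796641-21796809, at places 1358 to 2438 and 238 to 1614 bp from their neighbours. Of these 10 near peaks, 4 had a neighbour that was a Rad21 site at 4.5 hpf and 2, on chromosomes 2 and 19, had a neighbour at CTCF as well. The opposite arrangement, with CTCF at the neighbour, was led by chr25:17057174-17057342 and chr14:23837528-23837696 (above), then chr11:29094731-29094899 at place 769, chr12:1021974-1022142 at place 949 and chr13:7618340-7618508 at place 953. The neighbours of these last 3 stood 4250, 4624 and 2579 bp away, and all 5 of these neighbours were new at 10 hpf.

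Other 4.5 hpf peaks stood close to near peaks chiefly where one of them was kept. Another 4.5 hpf peak lay within 5 kb of 182, or 24.4% (21.4 to 27.7), against 9.74% (8.69 to 10.9) of kept and 4.84% (4.14 to 5.61) of distant peaks, and 8.90% of the whole 4.5 hpf list. For 145 of the 182 the closest such peak was a kept one, for 26 it was another near peak and for 11 a distant one. The choice itself sets this contrast, because a kept peak within reach brings its 10 hpf counterpart within reach as well. Counting only company that was also absent at 10 hpf, the shares were 5.37% (3.86 to 7.24) of near, 4.89% (4.14 to 5.73) of kept and 4.84% (4.14 to 5.61) of distant peaks, with intervals that overlap. The smallest distance from a near peak to another 4.5 hpf peak was 390 bp.

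Most near peaks had a single 10 hpf peak in reach. That was so for 661, while 76 had 2 and 8 had 3 or more, up to 4. For 53, or 7.11% (5.37 to 9.20), there were 10 hpf peaks on both sides within 5 kb. Where near peaks shared a neighbour, examples are chr16:23118803-23118991, at place 1028 and with a 4.5 hpf peak of its own, which lay between near peaks at 4839 and 3647 bp, and chr6:19951075-19951263, at place 1242 and new at 10 hpf, with near peaks at 1852 and 325 bp on one side. The last 2 neighbours were chosen after their values were seen, as the first listed on each arrangement.

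Of all near peaks, 1 overlapped a 2.5 hpf Rad21 peak, beside 0.0280% (2 of 7144) of the 4.5 hpf list. It was chr18:29352878-29353046, at place 1977, with its neighbour chr18:29352658-29352846 at place 10309, 210 bp away. A single wide 2.5 hpf peak, chr18:29352022-29354916, spanned both, with 59.3-fold enrichment in the authors' deposited table. That list was made with another peak caller and from other libraries, so its overlap is given without comparison across stages.

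Every chromosome carried near peaks, from 15 on chromosome 25 to 47 on chromosome 7. Per Mb they ran from 0.390 on chromosome 25 to 0.783 on chromosome 16, with a median of 0.538. Among peaks absent at 10 hpf, the share of near peaks was above that of chromosome positions on 24 of 25 chromosomes. Chromosome 25 alone was below, with 9.55% (5.45 to 15.3) of 157 peaks against 12.2% of positions. On 13 chromosomes the interval lay wholly above. The rule used these distances and chromosomes are not replicates, so these counts are a description. The highest shares were those of 28 of 112 peaks on chromosome 22 (interval 17.3% to 34.1%), 24.1% (18.2 to 30.8) of 191 on chromosome 16 and 23.7% (17.7 to 30.4) of 186 on chromosome 2, against 11.3%, 11.6% and 11.4% of positions. Chromosome 4 had the highest ratio, 2.34, with 18.9% of 164 peaks against 8.08% of positions. That share of positions was the lowest of all chromosomes, as was its density of 10 hpf peaks, 9.28 per Mb. Positions were not filtered for sequence that reads cannot be placed on. Of its 31 near peaks, 7, or 22.6% (9.59 to 41.1), lay beyond 24 Mb, on the repeat-rich long arm. Of all its 255 peaks at 4.5 hpf, 84, or 32.9% (27.2 to 39.1), lay there.

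**Figure D5:**
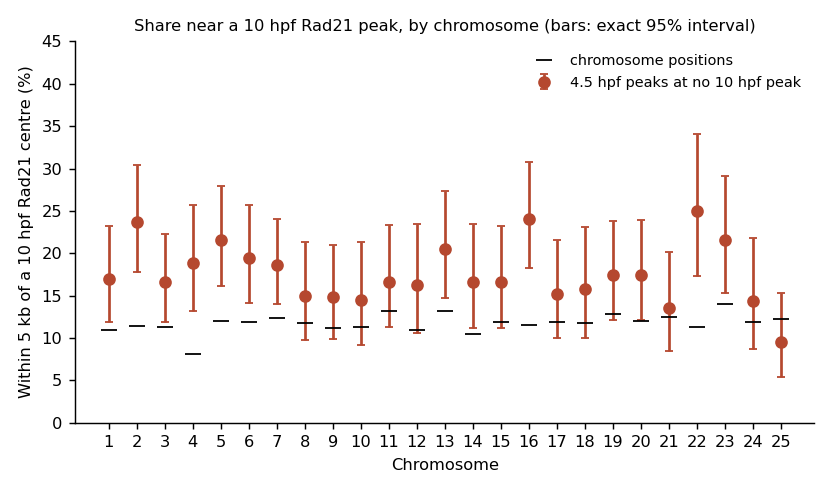
Share (%) of 4.5 hpf Rad21 peaks at no 10 hpf peak that lie within 5 kb of a 10 hpf centre, for chromosomes 1 to 25 (red points, bars are exact 95% intervals), with the share of chromosome positions within the same reach (black dashes). The points lie above the dashes except on chromosome 25, where 9.55% stands against 12.2%.

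Near peaks lay in many 1 Mb windows. Of the windows that held any, 368 held 1, 112 held 2 and 30 held 3. Whether they were more gathered than an even scatter was not tested. The densest was chromosome 13 from 36 Mb, with 6 near peaks among 15 peaks at 4.5 hpf (3 kept and 6 distant) and 22 at 10 hpf. The next was chromosome 15 from 3 Mb, with 5 near peaks among 11 peaks at 4.5 hpf and 18 at 10 hpf. A further 13 windows held 4 each. The 2 densest differed in CTCF, with 4 and 11 CTCF peaks.

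Absence from the 10 hpf list means that no peak passed its thresholds there. Per the file headers, 16425 of 35851 putative peaks at 10 hpf were dropped for too little enrichment over input and 1351 for too little over the surrounding 10000 bp, a region that includes any neighbour within 5 kb. Tags at the near peaks at 10 hpf are not in the lists, and the part of these filters in the 745 was not tested. Absence from the 4.5 hpf list is limited in the same way. At 4.5 hpf, 11034 of 18663 putative peaks were dropped against input and 484 against the surrounding 10000 bp. How many neighbours counted as new were missed at 4.5 hpf for this reason was not tested.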

How the data were processed

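The authors deposited 1 peak list for each antibody and stage. The submitters' processing notes name Bowtie2 2.2.1, HOMER and the Zv9 build. Per the file headers, the 4.5 and 10 hpf lists were called with HOMER findPeaks (false discovery rate 0.001, at least 4-fold over input and over 10000 bp around the peak) from 1 tag directory each, and the 2.5 hpf list with MACS2 2.1.0.20151222 (q-value 0.05) from both libraries. Whether both libraries were pooled for the later lists is not stated. The deposited score of the HOMER lists is a constant. The pileup (a signal), the −log10 of q and the fold enrichment (a ratio) of the 2.5 hpf list are the authors' deposited values, and the fold alone was printed.

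Starts were made 1-based. Order in a list served as rank; it followed the rank in the peak identifiers (median Spearman's rho over chromosomes 0.85 at 4.5 hpf and 0.97 at 10 hpf). Overlaps of at least 1 bp, distances between centres and exact Clopper-Pearson 95% intervals were computed in Python 3.11.15 with numpy 2.4.6, pandas 2.3.3 and scipy 1.17.1, by code checked against brute force on simulated peaks. The largest peak end on a chromosome in any of the 4 lists stood for its length, 1356 Mb in all. Named regions were the first 10 near peaks, the 5 nearest and 5 farthest, the 3 just outside, the first 10 with a neighbour in the first 500, the first 10 at CTCF, the first 5 with a CTCF neighbour, those at a 2.5 hpf peak and the windows with most near peaks. Of the 3 windows so to be named, the third is tied among 13 and is given as that count. Members, comparisons and rules were chosen with earlier results of these data known. Sequences and genes at these regions were not analysed here.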

Additional observations from a re-analysis of the deposited data

How the results depend on the processing

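No paired analysis was possible because each stage and antibody has 1 list with no column for a single library, and for the same reason no replicate could be left out. Over the other settings tried, 34 of 53 values stayed within the interval of the reported one (for counts, within 1.5 times), among them all 7 without chromosome 4 beyond 24 Mb. A distance limit of 2 kb left 359 near peaks with a median distance of 968 bp. A limit of 10 kb gave 1311, a median distance of 4124 bp and 17.2% with another 4.5 hpf peak within 5 kb. With centres within 500 bp counted as one site, the median distance was 2420 bp and 21.3% had a neighbour that was a Rad21 site at 4.5 hpf. With the 10 hpf list cut to its first 7144 peaks, there were 379 near peaks, at a median place of 3643. Of these 33.5% had a neighbour that was a Rad21 site at 4.5 hpf, 5.01% overlapped CTCF, 23.2% had a neighbour at CTCF and 40.9% had another 4.5 hpf peak within 5 kb. The first 3572 peaks of the 4.5 hpf list gave 315 near peaks at a median place of 2318. With 4.5 hpf peaks within 1 kb merged, 14.9% had a neighbour that was a Rad21 site at 4.5 hpf and 20.9% another 4.5 hpf peak within 5 kb. Counting a CTCF centre within 500 bp put 6.04% of near peaks at CTCF, and the first 7039 peaks of the CTCF list put 15.4% of neighbours there. For the latter, the share of all 10 hpf Rad21 peaks is not given here. A limit on distance, a shorter list and a wider reach change these numbers by construction; other causes were not tested. Depth is known per list only, so intervals cover counting of peaks and not the spread between embryo collections.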
